A study of Mus musculus with 6 samples.

Results

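Mouse embryonic stem cells of the E14 line were assayed on 6 arrays, 2 per treatment, and the arrays titled with replicate number 2 (called set 2 here) were compared with those titled with replicate number 1 (set 1). Each set held 3 of the 6 arrays of the series, 1 untreated, 1 exposed to valproic acid (VPA, 0.5 mM) and 1 exposed to sodium butyrate (NaBu, 0.2 mM), both for 16 h. The members were chosen by the number in the title alone, and the comparison covered all 19920 genes with a named probeset, with treatment as a block so that every gene's difference was taken within a treatment. All 6 samples shared the same line, a feeder layer of primary embryonic fibroblasts arrested with mitomycin C, 15% fetal bovine serum and leukemia inhibitory factor (LIF). VPA and NaBu inhibit histone deacetylases, and the study asked what low levels of them do, so the replicate number was not a treatment of the study.

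Stem cells of this kind self-renew while LIF and serum signals sustain a network of transcription factors around Oct4, Sox2 and Nanog. They respond quickly to their surroundings: low oxygen stabilises the factor HIF1, which turns on genes of glycolysis, iron and pH control and vessel growth, and shortage of amino acids or misfolded protein turns on the factor ATF4. A small share of the cells in such cultures passes through a state that resembles the embryo at the 2-cell stage, and the fibroblast layer can contribute its own matrix and cytokine transcripts to RNA taken from the whole dish.

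The deposited values are log2 expression, so a difference of 1 is a 2-fold change, and every difference below is set 2 minus set 1 with its 95% interval from limma. Gene values are listed in the order untreated, VPA, NaBu. The sources used here number the replicates but do not say whether the numbers stand for separate cultures, days or hybridisations, so the p-values measure the spread between these arrays only. A two-sided exact sign-flip test of 3 pairs cannot go below a p of 0.25, so single genes were tested in the model across all genes.

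The label of the cells was checked against marker genes. All 8 embryonic stem cell markers lay at or above the 96.5th percentile of gene levels, and their summed level was 14.76, 14.49 and 14.74 in set 1 and 14.60, 14.42 and 14.52 in set 2. Of 12 measured fibroblast markers, 9 were called higher in set 2, 0 lower, and 11 lay above 0. Their summed level was 10.58, 10.38 and 10.70 in set 1 and 11.52, 11.73 and 11.91 in set 2. Every set 2 array thus lay above every set 1 array in fibroblast markers. In bulk samples, fewer cells of a type and less RNA per cell cannot be told apart, and the part of feeder RNA in the results that follow was not tested. Among markers of primitive endoderm, trophectoderm, neural cells, macrophages and endothelium, Dab2 and Nes were called higher and Tek, a receptor of endothelium, lower by 1.46. The others were not called: Ptprc, the pan-leukocyte surface antigen, differed by -0.02, Cdh5 of endothelium by 0.04 and Cdx2 of trophectoderm by -0.00.

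**Figure D1:**
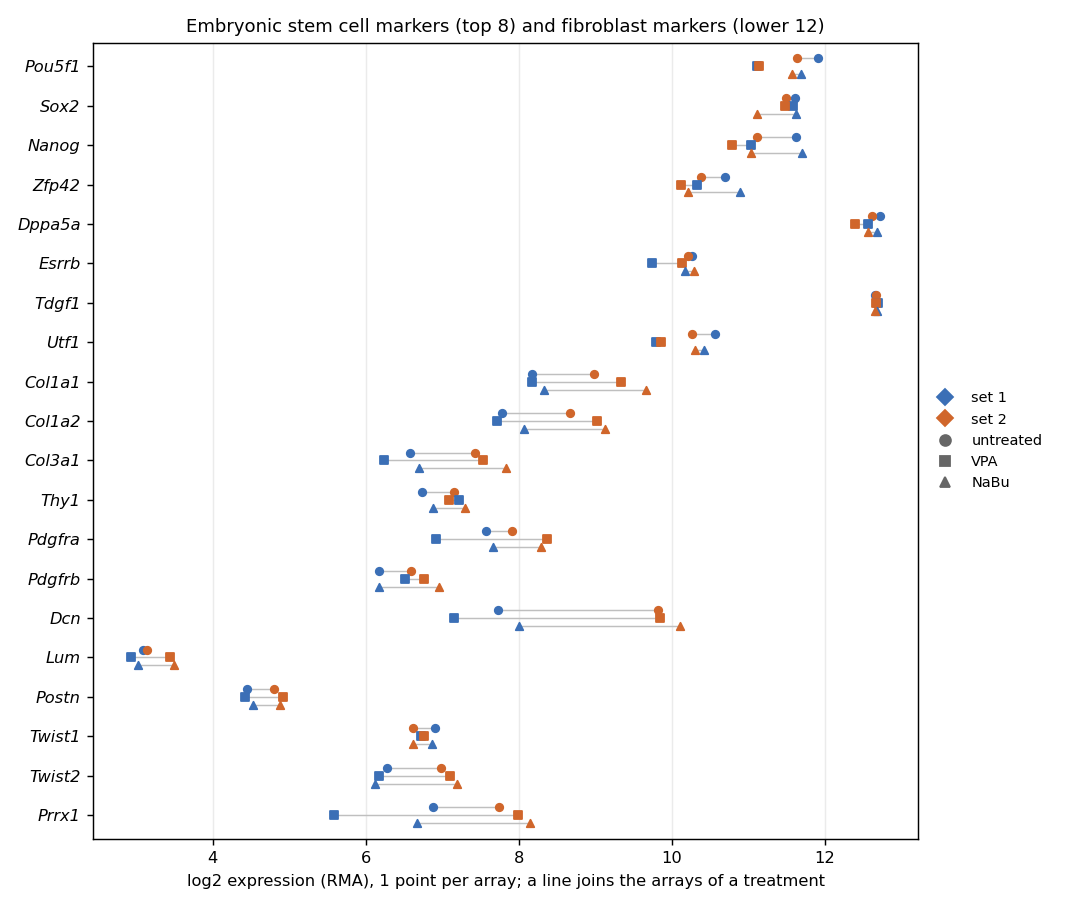
Log2 expression of 8 embryonic stem cell markers and 12 fibroblast markers on each array; blue points are set 1, orange points set 2, and the shape gives the treatment. Stem cell markers of both sets lie on the right and differ less, while Col1a1, Col1a2, Col3a1, Dcn, Twist2 and Prrx1 lie higher in set 2 in every treatment.

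Across all genes the replicate number went with more called genes than either compound. In set 2, 1203 genes were higher and 1108 lower at an adjusted p under 0.05, which is 11.6% of the genes tested (6.04% higher and 5.56% lower). Of the called genes, 116 were at least 2-fold higher and 78 at least 2-fold lower. All 2311 had the same sign in the untreated, VPA and NaBu pairs. The blocked fit calls genes whose pairs agree, so this shared sign is largely set by the calling and is no separate support. In the same model limma called 0 genes for VPA and 0 for NaBu against untreated cells, with 2634 and 914 at an unadjusted p under 0.05 against 5275 for the sets. The sets were compared with 3 arrays on each side and each compound with 2, so these counts differ in precision. The median absolute difference was 0.1266 for the sets, 0.1153 for VPA and 0.0865 for NaBu, and 194, 21 and 1 genes lay at or past 2-fold. The median gene differed by 0.01, and the smallest difference that was called was 0.32. Centring each array on its median moved the median gene to -0.04 and the share of calls that were higher from 52.1% to 40.8%. Without the NaBu pair 716 genes were called, 692 of them among the 2311, without the untreated pair 1372 and without the VPA pair 2426. With the block, leaving out 1 array leaves out its pair, so every fit below without a single array has no treatment block and is to be read against the fit of all 6 arrays with no block. In that fit 1678 genes were called from all 6 arrays, 867 and 1002 without control replicates 1 and 2, 2913 and 630 without VPA replicates 1 and 2, and 625 and 620 without NaBu replicates 1 and 2.

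**Figure D2:**
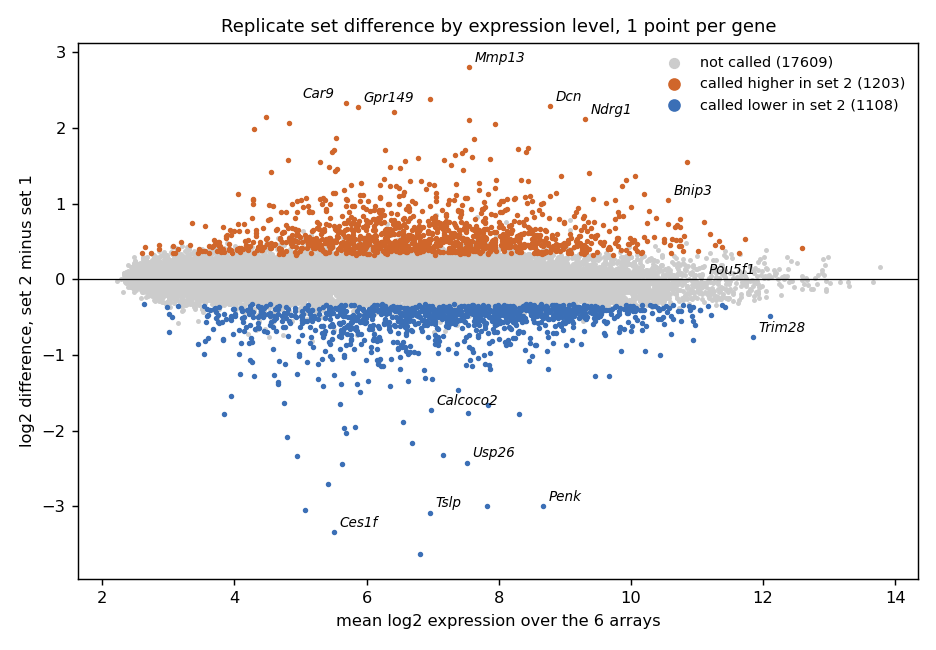
Log2 difference (set 2 minus set 1) against mean log2 expression for 19920 genes; grey points were not called, orange points were called higher and blue points lower. Differences beyond 2 occur on both sides, from dim genes such as Car9 to well expressed ones such as Ndrg1 and Penk, while Pou5f1 lies near 0.

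The 12 called genes with the greatest rise in set 2 were of several kinds. Mmp13, a collagenase, stood at 6.24, 5.59 and 6.59 in set 1 and 8.77, 9.19 and 8.88 in set 2. No set 2 value came near the set 1 values, and the difference was 2.80 (2.30 to 3.31; adjusted p 0.000477). Dcn, the matrix proteoglycan decorin, stood at 7.73, 7.15 and 8.003 in set 1 and 9.81, 9.84 and 10.10 in set 2, a difference of 2.29 (1.99 to 2.59). Igfbp4, a secreted binding protein of insulin-like growth factors, rose by 2.05. Gpr149, an orphan G-protein-coupled receptor, was low in set 1, with 4.64, 4.77 and 4.76, and reached 6.81, 7.06 and 7.14 in set 2. Its 3 pairs were nearly alike, which gave a narrow interval around 2.27 (2.06 to 2.49). Tcim, a regulator of transcription, rose by 2.21, the membrane protein gene Dynap by 2.14 and the mast cell protease gene Mcpt8 by 2.06. Meiob, a meiosis gene for strand exchange, rose from 3.23, 3.72 and 2.95 to 5.58, 5.06 and 5.23. All 12 of the genes with the greatest rise, which also include Lox, Car9, Ndrg1 and Gbe1, had separate ranges in the 2 sets.

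The genes with the greatest fall were of other kinds, and several changed from a clear signal to one near the floor of the array. Ces1f, a carboxylesterase, stood at 7.29, 6.92 and 7.35 in set 1 and 3.73, 3.94 and 3.86 in set 2, a difference of -3.34 (-3.63 to -3.05; adjusted p 1.71e-05). Its set 2 values lay near the lower quartile of those arrays (3.49 to 3.54), and the files give no detection call, so no fold is given. Tslp, an epithelial cytokine, stood at 8.77, 7.61 and 9.10 in set 1 and 5.31, 5.26 and 5.68 in set 2 and Penk, the precursor of enkephalin peptides, at 10.32, 9.73 and 10.43 in set 1 and 6.88, 7.40 and 7.24 in set 2. Both were lower in every set 2 array than in any set 1 array, by -3.08 and -2.99. Akr1c18, an aldo-keto reductase that inactivates progesterone, differed by -2.99, and Mgp, a calcification inhibitor of the matrix, by -2.17. In Tslp, Penk, Akr1c18 and Mgp the VPA array was the lowest of set 1. Nxf3, of the nuclear RNA export family, fell by 2.71, Usp26, a testis deubiquitinase, by 2.42, and Wfdc15a by 2.03. Scml2, a Polycomb-related protein of the germ line, stood at 8.25, 8.19 and 8.48 in set 1 and 5.66, 5.91 and 6.41 in set 2, a difference of -2.32. Nlrp4c, a gene of the oocyte and early embryo, stood at 6.54, 7.12 and 6.89 in set 1 and 4.18, 4.10 and 4.96 in set 2 and Asz1, needed for the piRNA pathway in germ cells, at 5.93, 5.99 and 6.41 in set 1 and 3.84, 3.62 and 3.88 in set 2. The ranges of the sets were apart for each of these genes.

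Genes of the hypoxia response were higher in set 2 as a list: of 66 measured members 33 were called higher and 2 lower, beside 6.04% and 5.56% of all genes. Their median difference was 0.44 against 0.01 for all genes, and it was 0.42, 0.40 and 0.52 in the untreated, VPA and NaBu pairs. Of the 66 members, 49 lay above 0 in all 3 pairs, and the list without its members of the fibroblast list had 31 called higher of 64. With no treatment block 32 were called higher, and 21 without NaBu replicate 2. With a pair left out the count was 23 to 34.

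HIF1 and its relatives bind DNA at a short core. Only its form ACGTG was searched and is called the core below, so other forms are unmarked and uncounted. The upstream windows of 5 called genes are shown to set that core beside the changes in level. A window of 250 bases before the RefSeq start was at hand for 53 of the 66 members, and the lines give the 5 called members with the greatest rise among those that hold the core, 5′ to 3′ on the gene's strand, in the GRCm38.p6 build, with each ACGTG or its reverse complement CACGT in capitals.
Car9 (chr4:43506776-43507025, plus strand): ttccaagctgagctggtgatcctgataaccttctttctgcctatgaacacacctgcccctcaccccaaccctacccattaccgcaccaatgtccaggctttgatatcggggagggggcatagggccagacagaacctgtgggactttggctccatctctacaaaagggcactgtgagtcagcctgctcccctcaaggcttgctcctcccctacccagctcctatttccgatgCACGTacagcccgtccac
Ero1a (chr14:45318573-45318822, minus strand): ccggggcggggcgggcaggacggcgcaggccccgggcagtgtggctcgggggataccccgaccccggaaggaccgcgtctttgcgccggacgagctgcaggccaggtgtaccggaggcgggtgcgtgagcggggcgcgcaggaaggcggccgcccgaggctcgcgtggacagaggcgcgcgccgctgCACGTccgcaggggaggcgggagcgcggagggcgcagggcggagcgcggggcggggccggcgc
Egln3 (chr12:54203875-54204124, minus strand): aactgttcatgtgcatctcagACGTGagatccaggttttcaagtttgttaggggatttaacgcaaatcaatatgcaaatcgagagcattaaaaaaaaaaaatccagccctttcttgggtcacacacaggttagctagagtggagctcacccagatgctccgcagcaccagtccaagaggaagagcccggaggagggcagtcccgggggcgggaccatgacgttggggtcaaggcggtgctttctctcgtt
P4ha2 (chr11:54100674-54100923, plus strand): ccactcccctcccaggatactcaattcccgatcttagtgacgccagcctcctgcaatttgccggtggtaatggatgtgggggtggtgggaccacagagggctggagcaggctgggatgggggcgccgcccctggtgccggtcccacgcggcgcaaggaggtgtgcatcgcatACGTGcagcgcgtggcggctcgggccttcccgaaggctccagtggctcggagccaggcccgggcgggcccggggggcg
Pygl (chr12:70227684-70227933, minus strand): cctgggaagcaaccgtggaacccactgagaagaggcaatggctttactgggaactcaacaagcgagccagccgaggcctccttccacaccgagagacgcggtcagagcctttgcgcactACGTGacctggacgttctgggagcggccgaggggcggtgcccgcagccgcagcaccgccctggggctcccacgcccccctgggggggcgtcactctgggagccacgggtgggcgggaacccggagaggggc
The core stood 13 bases before the start of Car9, 58 before that of Ero1a, 73 before that of P4ha2, 126 before that of Pygl and 224 before that of Egln3. None of these 5 cores lay within CACGTG, the E-box of other factors. Counted on both strands, the core was in the window of 30 of the 53 members (56.6%), against 20.9% of the 15614 measured genes with a window. It was in 15 of the 28 members called higher (53.6%) and in 14 of the 23 not called (60.9%). Windows of 10 of the 53 members held the whole E-box, against 1266 of the 15614 measured genes with a window. The E-box was in 2 of the 28 members called higher and in 7 of the 23 not called. A match is a description of letters and not a binding site.

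Among the oxygen sensors, the prolyl hydroxylases that mark HIF for breakdown rose, whereas Hif1a and Epas1 were not called. Egln3 stood at 8.38, 8.15 and 8.23 in set 1 and 9.57, 9.58 and 9.72 in set 2, a difference of 1.37 (1.14 to 1.59; adjusted p 0.00034), with the sets well apart. Egln1, the main hydroxylase in most cells, rose by 1.04, and Hif3a, an inhibitory subunit, by 0.66. Egln2, the third hydroxylase, differed by -0.12 and Hif1a itself by -0.19 (-0.40 to 0.02), with neither called. Hif1a stood at 9.43, 9.50 and 9.60 in set 1 and 9.29, 9.39 and 9.28 in set 2, so that every set 2 value was below every set 1 value. Epas1, the subunit HIF2 alpha, stood at -0.39 and was not called.

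Signals that act on vessels moved less evenly. Vegfa, the main growth factor of vessels, stood at 7.70, 7.71 and 7.71 in set 1 and 8.69, 8.63 and 8.98 in set 2. Its set 1 values lay within a narrow band and its set 2 values about 1 unit above, a difference of 1.06 (0.83 to 1.29). The vasodilator peptide gene Adm rose by 1.28, Apln by 0.73 and the decoy receptor Flt1 by 0.65. Kdr, the signalling receptor for Vegfa, fell by 0.47, and Epo at 0.07 and Angptl4 at -0.05 did not pass.

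In the hypoxia list's mitophagy and survival group 4 of 5 members were called, and in its mTOR and translation brake group 5 of 7, all higher. Bnip3, a receptor for mitophagy, stood at 10.12, 10.06 and 9.95 in set 1 and 11.11, 11.04 and 11.12 in set 2, a difference of 1.05 (0.84 to 1.26), and its other probeset gave 1.08. Its relative Bnip3l rose by 0.53, Higd1a by 0.60 and Fam162a by 0.79. Ndrg1, a stress-response gene, stood at 8.41, 8.21 and 8.14 in set 1 and 10.25, 10.38 and 10.48 in set 2. Its difference of 2.11 (1.85 to 2.37) is 4.33-fold. The clock and hypoxia repressors Bhlhe40 and Bhlhe41 rose by 1.59 and 0.80, and Ddit4, an inhibitor of mTOR, by 0.99. All 7 measured members of the brake group lay above 0 in every pair.

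The enzymes that modify and cross-link collagen belong to this response and rose strongly. Lox, the lysyl oxidase that cross-links collagen, stood at 5.79, 5.61 and 5.89 in set 1 and 8.09, 8.04 and 8.30 in set 2, a difference of 2.38 (2.18 to 2.59; adjusted p 1.71e-05). Ero1a, which passes electrons to oxygen during protein folding, stood at 9.95, 10.34 and 9.93 in set 1 and 11.41, 11.77 and 11.68 in set 2, a difference of 1.55. The sets did not overlap in either gene. The prolyl hydroxylase subunits P4ha2 and P4ha1 rose by 1.31 and 0.95 and the lysyl hydroxylase Plod1 by 0.56, while Plod2 at 0.38 did not pass. Lox is also in the fibroblast list, and fibroblasts express these enzymes as well.

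For pH and fuel, the response was split between carbonic anhydrases and carriers. Car9, a carbonic anhydrase of the cell surface that is a textbook HIF target, stood at 4.72, 4.51 and 4.35 in set 1 and 6.43, 7.07 and 7.06 in set 2. The untreated array had the smallest rise of the 3 pairs, yet all lay far apart, and the difference was 2.33 (1.92 to 2.74). Car12 rose by 0.87, whereas the glucose carriers Slc2a1 at 0.29 (0.09 to 0.49) and Slc2a3 at 0.27 and the lactate carrier Slc16a3 at 0.03 did not pass. Among glycogen genes of the list, Gbe1, the branching enzyme, rose by 2.11 (1.77 to 2.46), the phosphorylase Pygl by 1.25 and the synthase Gys1 by 1.11, while the glycogen-targeting phosphatase subunits Ppp1r3c at 0.37 and Ppp1r3b at 0.28 were not called. Vldlr, a lipoprotein receptor, rose by 1.52. Pdk1, which closes pyruvate entry into mitochondria, stood at 0.26 (0.04 to 0.47) and was not called, and the adenylate kinase Ak4 fell by 0.54.

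**Figure D3:**
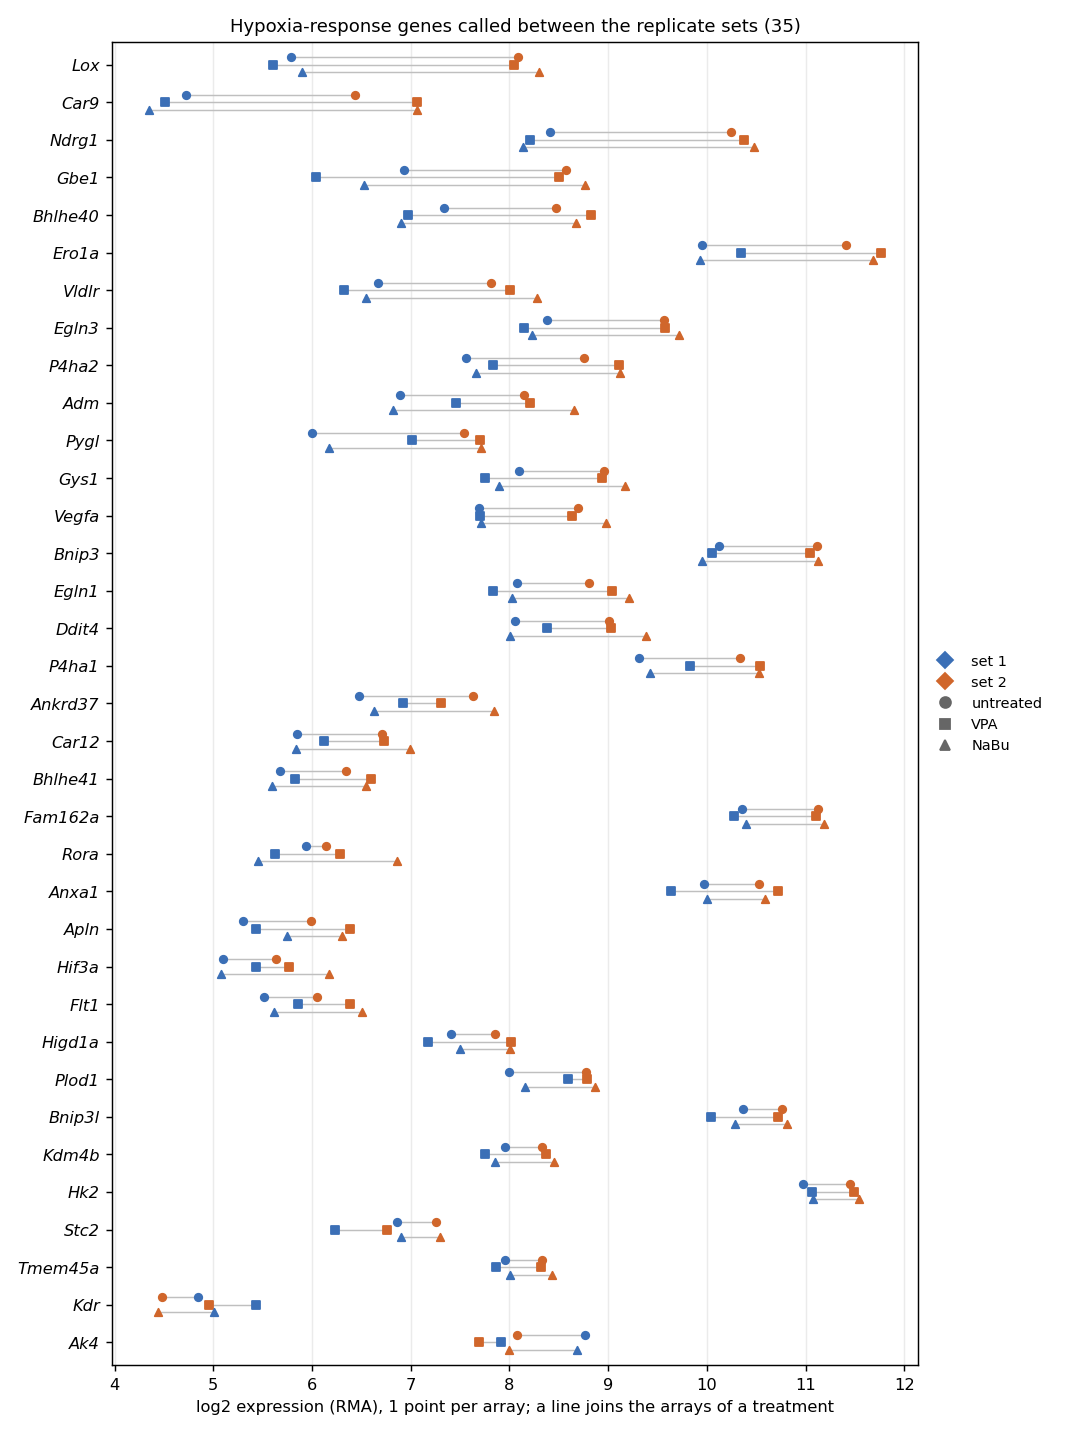
Log2 expression on each array for the 35 hypoxia-response genes that were called, ordered by difference; blue points are set 1, orange points set 2, shapes give the treatment and a line joins the 2 arrays of a treatment. In the upper rows, from Lox to Egln1, every orange point lies right of every blue point, and only Kdr and Ak4 run the other way.

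Glycolysis enzymes were higher in set 2 by smaller steps. Of 27 measured glycolysis genes 8 were called higher and 0 lower (29.6%, against 11.6% of all genes), 26 lay above 0, and the median was 0.26. Aldoc, an aldolase, stood at 8.56, 8.94 and 8.47 in set 1 and 10.04, 9.90 and 10.24 in set 2, a difference of 1.40 (1.07 to 1.74), and the enolases Eno2 and Eno3 rose by 1.21 and 0.61. In these 3 genes every set 2 array lay above every set 1 array. Ldhb, a lactate dehydrogenase subunit, rose by 0.50, Pfkp by 0.51 and Pgk1 by 0.42. Ldha, the subunit that HIF induces, stood at 12.65, 12.46 and 12.60 in set 1 and 12.67, 12.58 and 12.61 in set 2. These values overlap, and the difference was 0.05 (-0.15 to 0.25). The count of called members was 2 without the NaBu pair. In fits that dropped the block it was 7, with 3 without either NaBu array and 4 without control replicate 1 or VPA replicate 2.

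The respiratory chain went slightly the other way. Of 46 measured members 43 lay below 0, 35 of them in all 3 pairs, and the median was -0.16, but only 4 were called lower and 1 higher, near the shares over all genes. Uqcrh, of complex III, fell by 0.43, the complex I subunits Ndufa2 and Ndufs1 by 0.39 and 0.38, and Cox6c of complex IV by 0.36. With arrays centred on their medians 9 were called lower, and with quantile normalization 2. Ndufa4l2, which replaces a subunit in low oxygen, was the member that rose, at 7.70, 7.39 and 7.56 in set 1 and 8.66, 8.47 and 8.63 in set 2 with a difference of 1.04 (0.83 to 1.24).

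Stress genes were called in the ATF4 arm and hardly in the folding arm. Of 39 members of the ATF4 and amino acid arm 17 were called higher and 0 lower (43.6%, against 11.6% of all genes), with a median of 0.35. Of these 17, Ddit4, Vldlr and Stc2 are also counted in the hypoxia list and Atf3 among the immediate early genes. Of 21 members of the folding arm of the endoplasmic reticulum 1 was called (4.76%), Herpud1 at 0.85, and the median was 0.05. No test compared the arms. Atf4 itself rose by 0.56. Atf3, a factor induced by many stresses, stood at 7.29, 7.36 and 7.27 in set 1 and 8.59, 8.47 and 8.78 in set 2, a difference of 1.31 (1.07 to 1.55). Chac1, which breaks down glutathione, stood at 6.32, 6.05 and 6.12 in set 1 and 7.32, 7.14 and 7.12 in set 2 and Ddit3, the death-promoting factor CHOP, at 5.60, 5.88 and 5.86 in set 1 and 6.48, 6.82 and 6.79 in set 2. Each of these 3 genes was higher in every set 2 array. Trib3, a pseudokinase induced by CHOP, rose by 0.82, Pck2 by 1.14 and Aldh1l2 by 0.97. Asns, the asparagine synthetase that ATF4 induces, differed by 0.09 (-0.13 to 0.30) and Hspa5, the chaperone BiP of the folding arm, by 0.10 (-0.14 to 0.33), and both overlapped between sets. Between 13 and 22 members of the whole list were called when a pair was left out, and with no treatment block 16.

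Heat shock chaperones and metal and antioxidant genes had more members called lower than higher in set 2. Of 14 chaperones 4 were called lower and 1 higher (35.7%, against 11.6% of all genes). Hsph1 fell by 0.67, the small chaperones Hspb1 and Cryab by 0.62 and 0.52, and Dnaja1 by 0.50, while Hspb8, which acts in selective autophagy, rose by 0.61. Of 33 metallothionein and Nrf2 genes 5 were called lower and 2 higher (21.2%). Mt2, a metal-binding protein, stood at 12.16, 12.57 and 12.32 in set 1 and 11.71, 11.996 and 11.91 in set 2, a difference of -0.48 (-0.69 to -0.28). The VPA array was the highest of each set, and its set 2 value lay under all set 1 values. Mt1 at -0.23 did not pass. Gclm, for glutathione synthesis, fell by 0.49, Prdx1 by 0.41 and Nqo1 by 0.35, while Sqstm1, an autophagy receptor, rose by 0.76 and the exporter Abcc1 by 0.51. Of 28 p53 pathway genes 3 rose and 2 fell (17.9%), among them Mdm4, an inhibitor of p53, at 0.54, Btg2 at 0.48, Plk2 at 0.44 and Tigar at -0.45.

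Immediate early genes, which respond within minutes to growth factors and stress, moved in both directions. Of 40 measured 18 were called higher and 5 lower (57.5%, against 11.6% of all genes), and the median was 0.31. Fosb, a subunit of the AP-1 factor, stood at 7.11, 7.60 and 7.60 in set 1 and 8.85, 9.31 and 9.32 in set 2. The sets lay far apart, with a difference of 1.72 (1.52 to 1.92). Gadd45b rose by 1.14, Jun by 0.93, Klf10 by 0.85 and Klf6 by 0.84. Egr1 rose by 0.53 within pairs, from 6.81, 7.86 and 7.05 to 7.48, 8.17 and 7.67, but the VPA array of set 1 lay above 2 arrays of set 2, so the ranges overlapped. Myc, a growth regulator, fell by 0.66, Gadd45g by 0.83, Nr4a1 by 0.47, Arc by 0.43 and Ier2 by 0.40. Called higher were 8 without the NaBu pair. When the block was dropped 12 were, with 8 without VPA replicate 2 or either NaBu array and 19 without VPA replicate 1.

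Growth factor pathways had mixed changes. Of 24 LIF and BMP pathway genes 5 rose and 3 fell (33.3%, against 11.6% of all genes). Id2 and Id3, targets of BMP signals, rose by 0.83 and 0.49 and the kinase Jak2 by 0.72, and Id1 at 0.11 and Id4 at 0.13 were not called. Bmp4, a ligand, stood at 8.40, 8.08 and 8.34 in set 1 and 7.54, 7.34 and 7.43 in set 2 and fell by 0.84 (-1.04 to -0.63). Among 44 genes of the FGF, Nodal and Wnt pathways 5 rose and 3 fell (18.2%), and the median was -0.01. Wnt5a stood at 0.80, Lef1 at 0.45 and Nodal at -0.36. Of 23 Hippo pathway genes 6 rose and 2 fell (34.8%), and the median was 0.03. Axl, a receptor kinase that is a target of Yap1, rose by 1.13, Ankrd1 by 0.56 and Ccn1 by 0.50. Axl and Ccn1 are also in the fibroblast list, and Ccn2 at 0.29 was not called. Ajuba, a LIM protein that restrains the kinase Lats, fell by 0.75.

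Fibroblast genes made up the largest list, and 49 of 98 measured members were called higher and 2 lower, with a median of 0.39. That is 52% called, against 11.6% of all genes. Counts by role were 8 of 13 collagens, 18 of 37 matrix proteins, 13 of 25 surface and cytoskeletal genes and 10 of 23 factors and secreted signals. Col1a1, a chain of type I collagen, stood at 8.18, 8.18 and 8.33 in set 1 and 8.99, 9.34 and 9.66 in set 2, a difference of 1.098 (0.83 to 1.36). Col3a1 stood at 6.58, 6.23 and 6.70 in set 1 and 7.43, 7.53 and 7.83 in set 2 and the mesenchymal factor Prrx1 at 6.87, 5.59 and 6.66 in set 1 and 7.74, 7.99 and 8.15 in set 2. Both sets of values were apart in each of these genes, and Prrx1 was lowest by far on the VPA array of set 1. Tnc, the matrix glycoprotein tenascin C, rose by 1.85, Thbs2 by 1.44, Cd44, a receptor of hyaluronan, by 1.24, and the chemokine Cxcl5 by 1.58.

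The fibroblast genes did not all move alike. Thy1 stood at 6.73, 7.22 and 6.88 in set 1 and 7.16, 7.09 and 7.30 in set 2, overlapping values with a difference of 0.24 (-0.06 to 0.53). Sparc at -0.03, Acta2 of contractile fibres at -0.14, Twist1 at -0.17 and Vim at 0.39 did not pass, while Fbln5 fell by 0.59 and Mfap5 by 0.48. Called higher were 31 without the NaBu pair. In the unblocked fit 42 were, with 28 without VPA replicate 2 or NaBu replicate 2. Of 31 genes of antigen presentation and the interferon response 10 were called higher and 0 lower (32.3%, against 11.6% of all genes), with a median of 0.28. They included B2m, the light chain of MHC class I, at 9.74, 9.84 and 9.90 in set 1 and 10.57, 10.90 and 10.71 in set 2. Its difference was 0.90 (0.69 to 1.12), with separate ranges. Bst2 rose by 1.07, Ifitm3 by 1.31, Usp18 by 0.89 and Gbp3 by 0.73, while Ifit1 at 0.23 and Mx1 at -0.04 did not pass. The count for this list was 6 without the NaBu pair. Unblocked, it was 8, with 3 without VPA replicate 2 or NaBu replicate 1, 4 without control replicate 2 or NaBu replicate 2, 5 without control replicate 1 and 13 without VPA replicate 1.

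Pluripotency genes were lower in set 2 where they were called, by less than 2-fold. Of 40 measured members 10 were called lower and 0 higher (25%, against 11.6% of all genes), and the median was -0.19. The core group had 15 members, all below 0, with 6 called, and the naive group 25 members, 12 of them above 0, with 4 called. Pou5f1, the gene of Oct4, stood at 11.90, 11.12 and 11.68 in set 1 and 11.63, 11.13 and 11.56 in set 2. These values overlap, and the difference was -0.12 (-0.35 to 0.10). Sox2 at -0.25 (-0.50 to 0.00) and Zfp42, known as Rex1, at -0.40 (-0.66 to -0.14) did not pass. Nanog stood at 11.62, 11.04 and 11.70 in set 1 and 11.11, 10.79 and 11.03 in set 2. It was lower in set 2 in each pair, by 0.47 (-0.72 to -0.23), although the VPA array of set 1 lay below the untreated array of set 2. Sall4 fell by 0.48, Dppa2 by 0.53 and Zfp296 by 0.97. Trim28, the corepressor KAP1 that silences retroviral elements, stood at 12.20, 12.17 and 12.31 in set 1 and 11.51, 11.33 and 11.55 in set 2, a fall of 0.77 (-0.97 to -0.56) in one of the brightest genes of the array. The called count of the list was 2 without the NaBu pair and 3 without the untreated pair. With no treatment block alone it fell from 10 to 4, and in that form it was 15 without VPA replicate 1 and 2 without any other single array.

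Markers of the primed epiblast, the later pluripotent state of the embryo, were not higher either. Of 25 measured 3 were called lower and 1 higher (16.0%, against 11.6% of all genes), with a median of -0.10. Dnmt3l, a cofactor of DNA methylation, stood at 10.79, 11.15 and 10.86 in set 1 and 10.01, 9.73 and 10.08 in set 2 and fell by 0.99 (-1.31 to -0.68), Grhl2, an epithelial factor, by 1.14, and Foxd3 by 0.97, while Lef1 rose. Fgf5, the usual marker of the primed state, stood at -0.52 and Otx2 at -0.32, both not called. Of 18 DNA methylation genes 2 were called, which at 11.1% is near the 11.6% of all genes: Dnmt3l and Zfp57, which guards imprints, the latter at -0.48. Dnmt3b stood at -0.35, Dnmt1 at -0.16 and Tet1 at 0.27, none of them called.

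Genes of the 2-cell-like state were lower in set 2 and had the largest share of called members among the 30 lists, 69.2%. Of 26 measured members 18 were called lower and 0 higher, 23 lay below 0 in all 3 pairs, and the median was -0.60, with -0.52, -0.54 and -0.85 in the untreated, VPA and NaBu pairs. Calcoco2, an autophagy receptor that is a known marker of this state, stood at 8.06, 7.42 and 8.05 in set 1 and 6.22, 6.14 and 5.99 in set 2, a difference of -1.73 (-2.06 to -1.39; adjusted p 0.000609), and its second probeset gave -1.01. Tmem92 stood at 6.08, 6.83 and 6.72 in set 1 and 4.81, 5.65 and 5.02 in set 2. The sets were apart in both genes, and in Tmem92 both treated arrays were above the untreated one in each set. Pramel7 fell by 1.54, Eif4a3l1 by 1.14, Arg2 by 1.01 and Tcstv3 by 0.84. The deubiquitinase genes Usp17la and Usp17lb fell by 1.08 and 1.19, whereas Usp17ld stood at 7.55, 9.05 and 9.44 in set 1 and 9.27, 9.75 and 9.36 in set 2 with a difference of 0.78 that did not pass. Many of these genes have near-identical copies, such as Usp17l, Tdpoz and Pramel genes, so their probesets may share signal. The Zscan4 genes, which are usual markers of this state, are not analysed here because no probeset carries 1 of their symbols alone. With a pair left out 12 to 17 were called. With no treatment block 14 were, and 10 without control replicate 2 or either NaBu array.

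**Figure D4:**
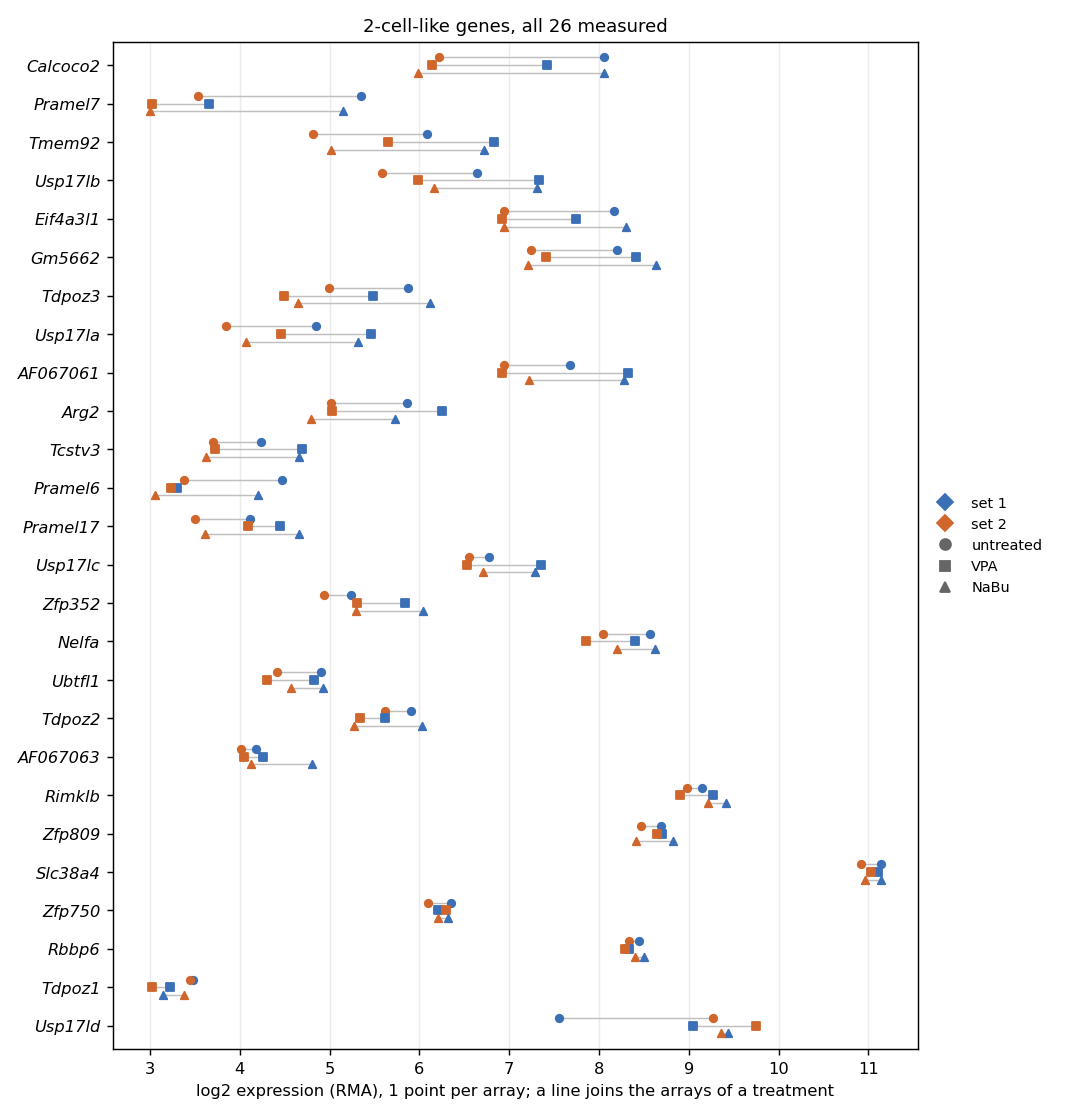
Log2 expression on each array for all 26 measured genes of the 2-cell-like list, ordered by difference; blue points are set 1, orange points set 2, shapes give the treatment and a line joins the 2 arrays of a treatment. Orange points lie left of blue points in most rows, and the last row, Usp17ld, runs the other way in 2 of 3 pairs.

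Germ line genes were split. Of 37 measured 9 were called lower and 4 higher (35.1%, against 11.6% of all genes). Sycp3, of the axis of meiotic chromosomes, stood at 7.41, 7.72 and 7.60 in set 1 and 9.31, 9.36 and 9.28 in set 2 and rose by 1.74 (1.52 to 1.96), the recombinase Dmc1 rose by 0.93 and Ddx4, known as Vasa, by 0.71. Against these, Asz1 fell by 2.33, Gtsf1 by 1.26, and Hormad2 by 0.81. Tuba3a and Tuba3b, tubulins of testis, differed by -1.28 and -2.08. The ranges were apart for Sycp3, Asz1, Tuba3a and Tuba3b. The median of the list was -0.42 in the VPA pair against -0.04 and -0.11 in the untreated and NaBu pairs. Called lower members numbered 6 without the NaBu pair and 6 with no treatment block. Of 31 imprinted genes 4 rose and 6 fell (32.3%), with Igf2 at 0.76, Mest at -0.65 and Ddc at -0.87, and Dcn as the greatest rise.

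Lists of other lineages had members called in both directions. Of 24 junction and keratin genes 7 rose and 2 fell, 37.5% against 11.6% of all genes. Krt19, a keratin of simple epithelia, stood at 7.42, 8.11 and 7.19 in set 1 and 9.29, 9.08 and 9.41 in set 2, with separate ranges and a difference of 1.69 (1.21 to 2.16). Cldn4, a claudin of tight junctions, rose by 1.05, Cldn7 by 0.91, Krt8 by 0.76 and Krt7 by 0.75, while Ocln fell by 0.66. The trophectoderm list, 5 higher and 5 lower of 26 (38.5%), had 4 keratin and claudin genes among its rises, and its regulators Cdx2, Elf5 and Gata3 stood at -0.00, -0.01 and -0.07. Of 47 mesoderm and endoderm genes 7 rose and 5 fell (25.5%): Thbd rose by 0.92, Plat by 0.82 and Dab2 by 0.70, while Lama1 fell by 0.81, and Gata4 at -0.07, Sox17 at -0.17 and Foxa2 at -0.08 did not pass. Of 43 neural genes 5 rose and 1 fell, which at 14.0% is near the share of all genes, with Ncam1 at 0.60, Nes at 0.55, Syp at 0.66 and Syt1 at 0.62.

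Genes of growth and metabolism changed by smaller amounts. Of 30 S phase genes 8 were called lower and 0 higher (26.7%, against 11.6% of all genes), with a median of -0.19. The origin factors Cdc6 and Orc1 fell by 0.55 and 0.54 and cyclin E1, Ccne1, by 0.51. The mitosis genes, 2 higher and 1 lower of 29 (10.3%, near the share of all genes), included Cdca8 at -0.53, and the proliferation marker Mki67 at 0.34 did not pass. Among cell cycle brakes 3 of 18 rose (16.7%), Btg1 by 0.52, Cdkn1b by 0.48 and Ccng2 by 0.38. Lysosome and nutrient genes rose in 12 of 29 cases (41.4%) with 0 lower and a median of 0.24. The protease Ctsl stood at 9.89, 10.11 and 9.95 in set 1 and 10.72, 10.86 and 10.78 in set 2 and rose by 0.80 (0.60 to 1.01). Txnip, a brake on glucose uptake, rose by 0.73 and Lamp2 by 0.63. The sets were apart in Ctsl. The count for the lysosome list was 5 without the NaBu pair. When the block was dropped it was 10, with 5 without NaBu replicate 1 and 6 without control replicate 2, VPA replicate 2 or NaBu replicate 2. Of 32 lipid synthesis genes 4 rose (12.5%, near the share of all genes), the desaturases Scd2 by 0.83, Scd1 by 0.55 and Fads1 by 0.49, and the sterol sensor Insig1 by 0.57.

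Histone deacetylase and acetyltransferase genes and genes of bulk translation differed little. Of 34 histone deacetylase and acetyltransferase genes 1 rose, Hdac5 at 0.36, and 1 fell, Hdac1 at -0.37 (5.88%, against 11.6% of all genes). No ribosomal protein gene of 25 was called by limma, with Rps14 at 0.34 and Rps29 at -0.35 as the extremes. Actb stood at -0.09 (-0.29 to 0.11). Of 12 small noncoding RNA genes 2 were called (16.7%): Vaultrc5 rose by 0.73 and Rnu3a by 0.53.

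**Figure D5:**
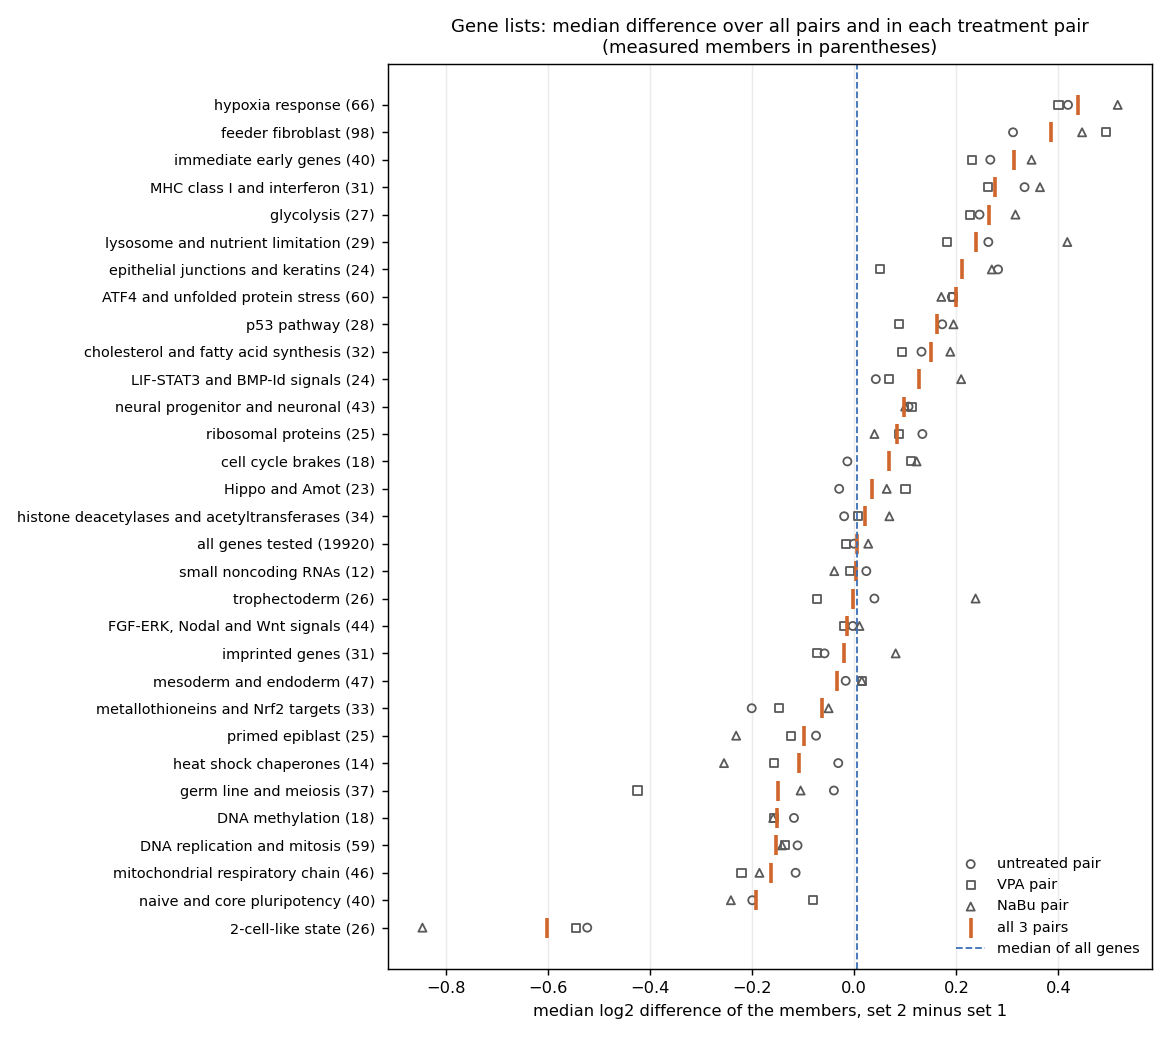
Median log2 difference (set 2 minus set 1) of each gene list, ordered by its value over all pairs (orange marks), with the medians in the untreated, VPA and NaBu pairs as open symbols and the median of all 19920 genes as a dashed line; measured members are in parentheses. Hypoxia response (0.44) and fibroblast (0.39) genes lie at the top and 2-cell-like genes (-0.60) at the bottom, each with all 3 pairs on the same side.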

How the data were processed

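Expression was measured on 6 Affymetrix gene arrays. Per the submitters' processing notes, the authors summarised them with RMA in Affymetrix Expression Console 1.1, and the deposited table holds log2 expression per probeset. The settings of RMA and the genome build were not given in the sources used here. Of 35556 probesets, 21789 carried a single gene symbol, 1621 several, and 12146 were not in the annotation. The brightest probeset stood for each of the 1015 genes that had more than 1, which left 19920 genes, and 23 symbols were updated through RefSeq. Arrays give no counts, so their number, 3 per set, limits the precision.

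Set 2 was compared with set 1 by limma 3.58.1 (R 4.3.3) with treatment as a block and no intensity trend in eBayes, which leaves 2 residual degrees of freedom per gene before moderation. Benjamini-Hochberg adjustment ran over all genes, and a gene is called when its adjusted p is under 0.05. The same model gave VPA and NaBu against untreated cells. The replicate numbers come from the sample titles and were taken to group the arrays. Set 2 minus set 1 correlated across the genes with r of 0.56 between the untreated and VPA pairs. The r was 0.69 between untreated and NaBu and 0.57 between VPA and NaBu. These are the same differences that were tested, so the correlations are no separate support for the grouping. The procedure was tested on simulated data. Alternatives were no treatment block, an intensity trend, a robust prior, median centring, quantile normalization, filters on dim genes, the mean of a gene's probesets, stricter thresholds, leaving out each treatment pair with the block kept, and leaving out each array with no treatment block. The 30 gene lists are described by counts and medians, with no test of a list.

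Genes were named by rule: among called genes with the same sign in every pair, the 12 largest and 12 smallest differences, then for each list the 4 members with the largest moderated statistic, and a short set of stem cell, oxygen, fibroblast and stress genes whatever their values. Clone-like, receptor-cluster and small RNA symbols were left out of the first group. Gapdh and Cdkn1a, which that set holds, are not analysed here. Other list members, and the families in the closing section, were picked after their values were seen. The members and lists were chosen with earlier results of these data known. Promoter windows come from the RefSeq table for GRCm38.p6.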

Additional observations from a re-analysis of the deposited data

Results flagged for a closer look

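Some gene lists had medians on different sides of 0 in different treatment pairs. Each pair is a single array against another, and these differences were not tested. The trophectoderm median was -0.0722 in the VPA pair and 0.238 in the NaBu pair, and the imprinted gene median -0.0728 in the VPA pair and 0.0812 in the NaBu pair. The Hippo list had -0.0295 in the untreated pair and 0.100 in the VPA pair, and the cell cycle brakes -0.0134 in the untreated pair and 0.122 in the NaBu pair. The deacetylase and acetyltransferase list had -0.0197 in the untreated pair and 0.0688 in the NaBu pair. The FGF, Nodal and Wnt list had -0.0207 in the VPA pair and 0.0102 in the NaBu pair. The mesoderm and endoderm list had -0.0167 in the untreated pair and 0.0161 in the VPA pair, and the small noncoding RNA list -0.0391 in the NaBu pair and 0.0237 in the untreated pair.

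The 13767 probesets without a single gene symbol, which the report does not use, held 5 that limma called between the sets, all lower in set 2, and 0 higher. That is 0.0363% of them, against 11.6% of named genes. The shares come from separate fits, each with its own adjustment, and 12146 of these probesets were not in the annotation, so they are not like for like.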

How the results depend on the processing

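No gene called between the sets changed direction in any of the 17 refits that held it. All 2311 had the same sign in the 3 pairs, so a fit without a pair could not reverse them. The kept direction was thus largely set by the calling and is no separate support. Of the 122 called genes named by the rule, 70 were called in every refit that held them. Of the 1203 higher and 1108 lower genes, 377 and 296 passed an adjusted p of 0.01, and 116 and 78 were also at least 2-fold. Fits without a single array had no treatment block, so 2 choices changed at once, while fits without a pair kept the block. Dropping the block alone took the counts to 918 higher and 760 lower. Without a single array they were 347 to 1563 and 245 to 1350, and without a pair 385 to 1380 and 331 to 1046. Over both kinds of fit, 21 to 34 hypoxia, 2 to 9 glycolysis, 13 to 22 ATF4 and unfolded protein stress, 8 to 19 immediate early, 28 to 49 feeder fibroblast, 3 to 14 MHC and interferon and 5 to 14 lysosome genes were called higher, and 2 to 15 pluripotency, 10 to 17 2-cell-like and 5 to 10 germ line genes lower. With an intensity trend 14 glycolysis genes were called higher. With no treatment block 4 pluripotency genes were called lower. When dimmer genes, those below the median level, were left out, so that fewer were tested, the counts were 13 glycolysis genes higher and 16 pluripotency, 8 2-cell-like and 5 germ line genes lower. Some values that were not called crossed 0. Hspa5 ranged from -0.0049 without the VPA pair to 0.174 without the untreated pair. In fits without a single array and with no block, where the lone array of a treatment enters unpaired, Ldha ranged from -0.005 without VPA replicate 1 to 0.0916 without control replicate 1, and Pou5f1 from -0.351 without VPA replicate 1 to 0.0429 without control replicate 1, with 0.029 without VPA replicate 2. With pairs left out and the block kept, Ldha stayed above 0 and Pou5f1 below 0 in each such fit. The fit with the replicate block called 0 genes for VPA and 0 for NaBu, as did the fit with no replicate block (0 and 0). The deposited values carry no background or detection call, so what dim signal limits was not tested.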

Other observations

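Several gene families, picked by symbol after their values were seen, also held genes called between the sets, beside 11.6% of all genes. Some Pramel, Rhox and Zfp genes are also in the lists above, so their calls are not separate from those counted there. Mitochondrial ribosomal proteins translate the mitochondrial genome. Of 77 measured Mrpl and Mrps genes 20 were called lower and 0 higher (26%), 71 lay below 0, and the median was -0.24. Under the other scalings of the arrays 18 to 26 were called lower. Mrpl36 fell by 0.79 and Mrpl34 by 0.73. The proteasome genes had a median of -0.16 with 35 of 40 below 0, but 1 was called (2.5%), Psma8, a testis subunit, at -0.84. Zinc finger genes named Zfp with a number were called lower in 42 of 347 cases and higher in 11 (15.3%, not far from the 11.6% of all genes), with a median of -0.06. Among them were Zfp980 at -1.28 and Zfp979 at -1.12.

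Families of oocyte, testis and early embryo genes had members called lower. Of 19 Nlrp genes 5 were called lower and 0 higher (26.3%, against 11.6% of all genes), with Nlrp14 at -1.96 beside Nlrp4c. Of 16 Pramel and Oog genes 7 were called lower and 0 higher (43.8%), among them Pramel19 at -1.07. Of 8 Rhox genes 3 were called lower and 0 higher (37.5%), with Rhox13 at -1.95. Against these, 4 of 15 interferon-inducible Ifi genes were called higher and 0 lower (26.7%). Of the 15, 10 lay above 0 and 5 below, and the median was 0.07. The called Ifi203, Ifi202b and Ifi27 rose by 1.46, 1.42 and 1.30. Of 31 integrin genes 5 were called higher and 0 lower (16.1%), with a median of 0.05. Of 1027 olfactory receptor genes 3 were called higher and 1 lower (0.389%), and 3 and 4 with arrays centred on their medians.

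Single genes of the sex chromosomes were chosen after their values were seen. Xist, the RNA that coats an inactive X chromosome, stood at 5.72, 5.38 and 5.39 in set 1 and 6.40, 6.63 and 6.58 in set 2, and rose by 1.04. Of the Y-linked genes, Kdm5d fell by 0.83 and Zfy1 by 0.49, whereas Eif2s3y at 0.05 and Uty at -0.20 did not pass.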
